A study of Homo sapiens with 4 samples.

Results

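The enzymes of the pentose phosphate pathway were followed by RNA sequencing in the human leukemia line MV4-11, derived from acute myeloid leukemia, after knockdown of the transcription factor IRF1. The group holds 6 of the 23622 genes in the deposited table, PGLS, PGD, RPIA, RPE, TALDO1 and TKT, found by matching each Ensembl identifier to its gene symbol. These 6 genes were selected with their values in this comparison already known, so the values are given as a description and no p is printed for them. The 2 control libraries (NC) carry no treatment by their labels, and all 4 libraries are labelled WT, while the column names and the methods call this group sh-NC, a control short hairpin RNA. The 2 knockdown libraries (sh-IRF1) came from MV4-11 cells given a short hairpin RNA against IRF1, which directs the breakdown of the matching transcript. According to the methods, hairpins were delivered by lentivirus from the pLKO.1 vector and infected cells were selected with puromycin, and the hairpin behind each sh-IRF1 library is not named. Both groups are populations of 1 cell line. The methods state in general that experiments were repeated independently, but do not tie this to the libraries used here. Whether the libraries of a group came from separate cultures is thus not known, so the errors and p-values below may measure technical spread only.

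The pentose phosphate pathway draws glucose 6-phosphate away from glycolysis. Its oxidative branch yields NADPH, the electron donor for glutathione reduction, lipid synthesis and the phagocyte oxidase, and ends in ribulose 5-phosphate. Its non-oxidative branch interconverts sugar phosphates, so that pentoses can become ribose 5-phosphate for nucleotides or return to glycolysis. In myeloid cells the pathway is known as the source of NADPH for the oxidative burst and, in dividing leukemia cells, of ribose for DNA and RNA.

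The RNA that the hairpins were designed to match is shown first, since it defines the treatment. The study lists 2 hairpins against IRF1, each with a target of 21 bases.
sh-IRF1#1 target: gcaccagtgatctgtacaact
sh-IRF1#2 target: ggaaattacctgaggacatca

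The promoters of PGD and RPE are shown because these were the enzymes with the largest difference in each direction. Each sequence runs 5′ to 3′ on the strand of the gene, from 250 bases before to 50 bases after the RefSeq transcription start, in build GRCh38.p14. The PGD promoter lies at chr1:10398814-10399113 and the RPE promoter at chr2:210002388-210002687, both on the plus strand. Capitals mark matches to the core of the antioxidant response element, TGACNNNGC, and to the ETS motif CCGGAAG, on either strand.
PGD promoter: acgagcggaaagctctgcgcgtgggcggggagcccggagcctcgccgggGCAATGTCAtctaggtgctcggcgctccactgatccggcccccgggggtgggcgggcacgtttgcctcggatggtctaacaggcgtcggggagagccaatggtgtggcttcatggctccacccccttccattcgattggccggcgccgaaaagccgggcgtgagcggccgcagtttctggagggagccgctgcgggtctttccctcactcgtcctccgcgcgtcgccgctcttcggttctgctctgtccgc
RPE promoter: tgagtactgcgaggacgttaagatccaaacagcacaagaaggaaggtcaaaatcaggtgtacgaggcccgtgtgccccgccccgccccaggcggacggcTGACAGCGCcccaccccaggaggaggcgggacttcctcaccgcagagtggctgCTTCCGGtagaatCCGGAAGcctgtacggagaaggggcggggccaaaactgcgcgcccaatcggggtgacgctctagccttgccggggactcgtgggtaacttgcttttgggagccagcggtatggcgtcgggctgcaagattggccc
PGD held 1 match to the antioxidant response element core, from base -201 to -193 relative to the RefSeq start and on the minus strand. RPE held 1 from base -151 to -143. RPE also held 2 ETS matches, from -98 to -92 and from -85 to -79. Of the 27305 promoters of the same length on the main chromosomes, 1 per gene, 13.6% held the antioxidant core and 10.7% the ETS motif.

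Promoters were found for all 6 enzymes and were searched on both strands for 7 motifs in all. The interferon-stimulated response element core GAAANNGAA, in 8.29% of all promoters, and the E-box CACGTG, in 7.43%, had 0 matches in the 6 promoters. The GC box GGGCGG, in 44.6% of all promoters, was present in all 6, from 1 match in PGLS and RPIA to 5 in TKT. The CCAAT box CCAAT, in 35.7% of all promoters, was present in 5 of the 6 and was not matched in PGLS. The RUNX motif TGTGGT, in 13.1% of all promoters, matched 1 time, in TKT. No match overlapped a match to another motif. GC content of the 6 windows ran from 63.0% in RPIA to 75.0% in TALDO1, against a median of 58.3% over all promoters. A match shows only that the letters are there, and the absence of one says nothing about the binding of a factor.

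The libraries held between 17635908 and 18695337 reads. Values are normalized counts, the deposited reads after the authors' scaling of every library by its own size factor. IRF1 (ENSG00000125347), the targeted gene, had 785 and 738 normalized counts in NC and 430 and 432 in sh-IRF1, or 56.6% of the control mean (log2 fold change -0.82, standard error 0.0904, adjusted p = 1.69e-10 from limma). IRF1 shares 22.9% of its exonic bases with genes on the opposite strand. The labelled cell type was checked against myeloid markers, and all 10 of the 10 had reads in every library, with summed normalized counts of 36323 and 36339 in NC and 32690 and 32888 in sh-IRF1. FLT3 carried the largest part of these sums, with a mean of 17401 in NC and 12690 in sh-IRF1, while the list as a whole went both ways, with 3 markers higher, 5 lower and 2 not called (median log2 fold change -0.041). LYZ stood at 180% of its control mean, and shares 34.7% of its exonic bases with a gene on the opposite strand. CD14 stood at 16.0%, but on few reads, 37 and 41 in NC and 11 and 2 in sh-IRF1. B cell markers summed to 88.2 and 120 in NC and to 254 and 305 in sh-IRF1, with MS4A1 not among the genes used here. Among T cell markers, CD3D and CD3E were not among the genes used here, and the sums of 11669 to 11956 came almost wholly from CD4, which monocytic cells also express. Erythroid markers summed to 10.3 to 28.8, and epithelial markers to 254 to 392, the latter in 2 keratin genes. The part of the myeloid and B cell marker shifts in the values below was not tested. In bulk RNA, fewer cells of a type and less RNA per cell cannot be told apart.

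Between NC and sh-IRF1, 4 of the 6 enzymes were higher and 2 were lower in the knockdown. PGD, TALDO1, RPIA and TKT were higher, with log2 fold changes from 0.19 to 0.54, and PGLS and RPE were lower, at -0.23 and -0.99. The directions did not follow the branches of the pathway, since each branch held enzymes of both directions. The median over the 6 was 0.19, against -0.0019 over the 14120 genes tested. All 6 had an adjusted p under 0.05 in the limma fit, against a background of 42.2% of all genes tested, with 20.3% higher and 21.9% lower in the knockdown. Scaling by total reads only turned that balance, with 3433 genes higher and 2645 lower in place of 2861 and 3092, and left the direction of the 6 enzymes as it was. With a log2 difference beyond 0.5 required besides, 2 of the 6 remained, PGD and RPE, against 15.8% of all genes. In all 6 the libraries of the groups did not overlap, as in 69.2% of all genes tested. Because the genes were selected on this comparison, nothing is read from these counts.

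**Figure D1:**
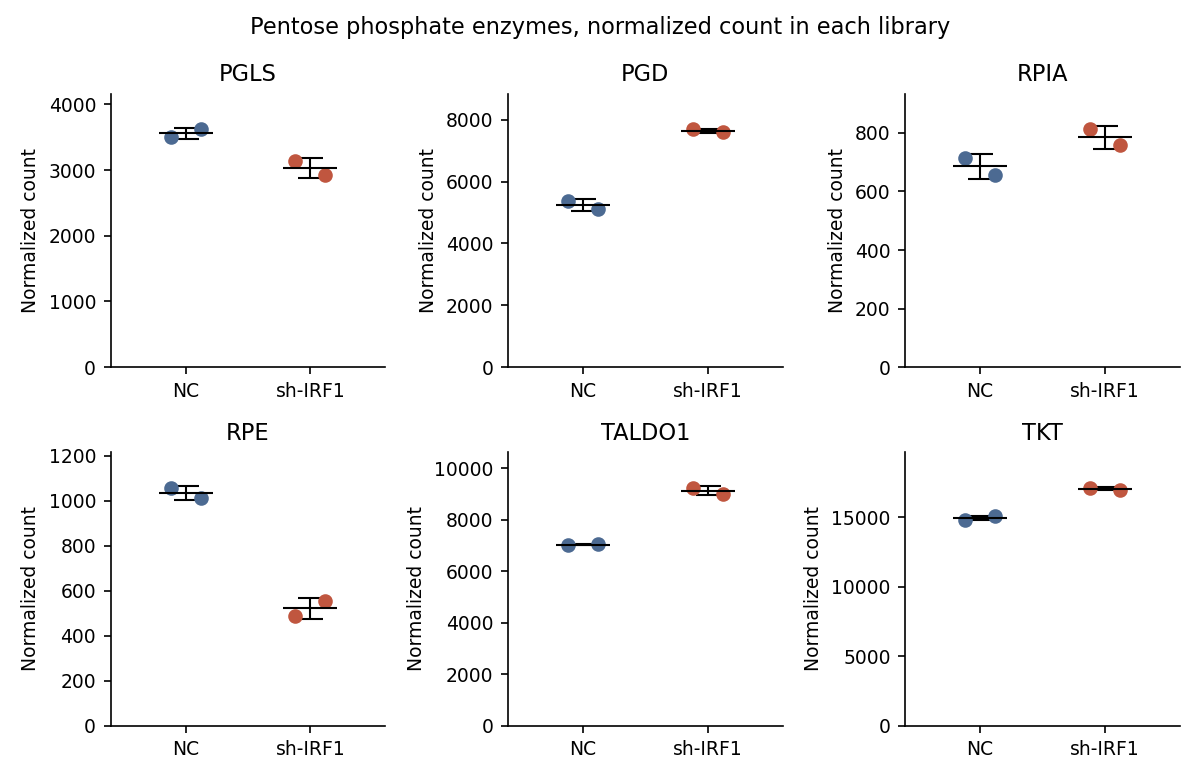
Normalized count of each enzyme (vertical axes start at 0, one panel per gene) in the NC libraries (blue points) and the sh-IRF1 libraries (red points), with the mean as a long bar and the standard deviation of 2 libraries as whiskers. RPE stands at 50.3% of its control mean and PGD stands at 146% of it, and in no panel do the points of the groups overlap.

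In the oxidative branch, PGLS (ENSG00000130313, chr19:17511636-17521288, plus strand) encodes 6-phosphogluconolactonase, which opens the lactone ring to give 6-phosphogluconate. It had 3504 and 3623 normalized counts in NC and 3144 and 2930 in sh-IRF1. Both sh-IRF1 libraries were below both NC libraries, at 85.2% of the control mean (3563 ± 83.8 against 3037 ± 152, SD, n = 2 each; log2 fold change -0.23, standard error 0.0435). The sh-IRF1 libraries differed from each other by 2.80 times the counting error of their reads, the widest spread among the enzymes in that measure. PGLS shares 8.94% of its exonic bases with PGLS-DT on the opposite strand, and the library kit does not mark strand. PGLS-DT itself had 29.7 and 52.4 normalized counts in NC and 22.9 and 25.3 in sh-IRF1.

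PGD (ENSG00000142657, chr1:10398592-10420511, plus strand) encodes phosphogluconate dehydrogenase, which takes the product of PGLS to ribulose 5-phosphate and makes NADPH. It had 5386 and 5113 normalized counts in NC and 7694 and 7597 in sh-IRF1. Both sh-IRF1 libraries stood well above both NC libraries, at 146% of the control mean (5250 ± 193 against 7645 ± 68.7, SD, n = 2 each; log2 fold change 0.54, standard error 0.0348). The consecutive enzymes PGLS and PGD thus differed in opposite directions. The ratio of PGD reads to PGLS reads, which does not depend on the scaling between libraries, was 1.54 and 1.41 in NC and 2.45 and 2.59 in sh-IRF1.

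In the non-oxidative branch, RPE and RPIA compete for the same substrate, ribulose 5-phosphate. RPE (ENSG00000197713, chr2:210002565-210022260, plus strand) encodes the epimerase that turns it into xylulose 5-phosphate. It had 1058 and 1013 normalized counts in NC and 488 and 554 in sh-IRF1. The sh-IRF1 libraries were far below the NC libraries, at 50.3% of the control mean (1035 ± 31.7 against 521 ± 46.2, SD, n = 2 each; log2 fold change -0.99, standard error 0.0822). RPE shares 23.8% of its exonic bases with KANSL1L on the opposite strand, so its reads are partly uncertain. KANSL1L had 247 and 212 normalized counts in NC and 189 and 202 in sh-IRF1 (log2 fold change -0.22, adjusted p = 0.23 from limma). RPEL1, a near copy of RPE, had reads that came to at most 2.65% of those of RPE in any library, and 6 named RPE pseudogenes were not among the genes used here.

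RPIA (ENSG00000153574, chr2:88691673-88750929, plus strand) encodes the isomerase that turns ribulose 5-phosphate into ribose 5-phosphate, the sugar of nucleotides. It had 716 and 655 normalized counts in NC and 813 and 757 in sh-IRF1. Both sh-IRF1 libraries were above both NC libraries, but the gap of 41.1 normalized counts between the nearest libraries was smaller than the gap of 60.7 between the NC libraries. The sh-IRF1 mean was 114% of the control mean (686 ± 42.9 against 785 ± 39.3, SD, n = 2 each; log2 fold change 0.20, standard error 0.0815). RPIA stayed past the threshold in 8 of 15 alternative analyses and not in the other 7, which included leaving out NC 2, sh-IRF1 1 or sh-IRF1 2, and its log2 fold change ran from 0.13 to 0.26 with a library left out. The ratio of RPE reads to RPIA reads was 1.48 and 1.55 in NC and 0.60 and 0.73 in sh-IRF1. RPE has 3523 exonic bases and RPIA 1813, so the ratio can be compared between the groups but its distance from 1 says nothing about which enzyme has the higher level.

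TKT and TALDO1 carry out the sugar exchanges that link the pathway back to glycolysis. TKT (ENSG00000163931, chr3:53224712-53256052, minus strand) encodes transketolase, which moves units of 2 carbons with thiamine diphosphate as cofactor. It had 14822 and 15052 normalized counts in NC and 17116 and 16962 in sh-IRF1. The sh-IRF1 libraries were higher by a small margin that was still wider than the spread within each group, at 114% of the control mean (14937 ± 163 against 17039 ± 109, SD, n = 2 each; log2 fold change 0.19, standard error 0.0264). TKTL1, a related gene, had reads of at most 0.184% of those of TKT.

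TALDO1 (ENSG00000177156, chr11:747415-765012, plus strand) encodes transaldolase, which moves units of 3 carbons. It had 7012 and 7052 normalized counts in NC and 9246 and 9019 in sh-IRF1. Both sh-IRF1 libraries were above both NC libraries, at 130% of the control mean (7032 ± 28.2 against 9133 ± 160, SD, n = 2 each; log2 fold change 0.38, standard error 0.0318). The ratio of TKT reads to TALDO1 reads was 2.11 and 2.13 in NC and 1.85 and 1.88 in sh-IRF1, so that TALDO1 differed by more than TKT.

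Because the groups did not overlap in any of the 6 enzymes, leaving out a library could not turn a direction. The log2 fold change then ran from -0.28 to -0.18 for PGLS, from 0.51 to 0.58 for PGD, from -1.08 to -0.90 for RPE, from 0.36 to 0.39 for TALDO1 and from 0.18 to 0.20 for TKT. Replicate libraries of one group differed in log2 by between 0.33 times (TALDO1 in NC) and 2.80 times (PGLS in sh-IRF1) the counting error. Reads of the 6 enzymes together took 0.180% and 0.179% of the NC libraries and 0.219% and 0.216% of the sh-IRF1 libraries. TKT had the most reads in that sum, so it follows the higher enzymes and does not show the lower level of RPE.

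Which enzyme had the higher level was read per length, as normalized counts per kilobase of exon. In NC, TALDO1 had the highest level per kilobase at 2419 ± 9.70 (SD, n = 2), followed by PGD at 1575 ± 58.0 and TKT at 1572 ± 17.2. PGD and TKT did not differ beyond the spread of the libraries. PGLS followed at 1255 ± 29.5, then RPIA at 378 ± 23.7 and RPE at 294 ± 9.0. In sh-IRF1 the order was TALDO1 at 3142 ± 55.1, PGD at 2294 ± 20.6, TKT at 1793 ± 11.5, PGLS at 1069 ± 53.4, RPIA at 433 ± 21.7 and RPE at 148 ± 13.1, and here no neighbours overlapped. The enzymes thus fell into an abundant group of 4 and a scarce pair, the isomerase and the epimerase that compete for ribulose 5-phosphate. Among 14055 genes ranked by level per kilobase in NC, TALDO1 was number 217, PGD 398, TKT 400, PGLS 534, RPIA 2287 and RPE 2952. The order of the abundant enzymes depends on the length used, since TKT has 9502 exonic bases in all but 2996 in its canonical transcript. On canonical transcripts, a length chosen after the data were seen, TKT at 4986 per kilobase came next after TALDO1 at 5865, followed by PGLS at 3535 and PGD at 2315, with RPIA and RPE last as before.

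As a share of the summed level per kilobase, PGD took 21.5% and 20.5% in NC and 25.69% and 25.98% in sh-IRF1. PGLS took 16.4% and 17.1% in NC and 12.3% and 11.8% in sh-IRF1. RPE took 3.99% and 3.85% in NC and 1.54% and 1.79% in sh-IRF1, the largest relative difference in share. TALDO1 went from 32.1% and 32.5% to 35.4% in both sh-IRF1 libraries, while the shares of TKT, between 20.05% and 21.21%, and of RPIA, between 4.76% and 5.25%, differed by less than 1.5 percentage points across all libraries.

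**Figure D2:**
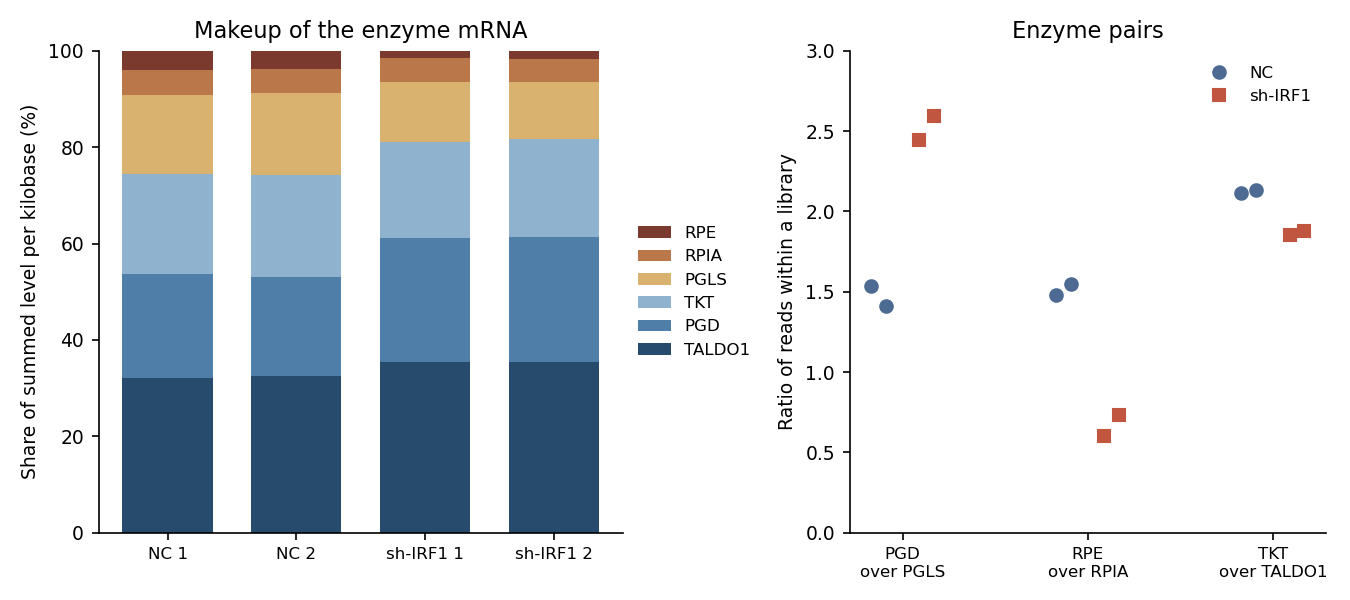
Left, share of each enzyme (%) in the summed normalized count per kilobase of exon, one bar per library. Right, ratio of reads of enzyme pairs within a library (axis from 0), NC as blue circles and sh-IRF1 as red squares. RPE shrinks from 3.99% and 3.85% to 1.54% and 1.79%, and its ratio of reads to RPIA is lower in both sh-IRF1 libraries, while PGD over PGLS is higher and TKT over TALDO1 slightly lower. The ratios are not corrected for gene length.

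The list of other genes of pentose and ribose phosphate metabolism held 19 symbols, of which 16 were among the genes used and 15 were tested. In that list 2 rose, 2 fell and 11 did not pass the test, with a median log2 fold change of -0.030. PGM1, a phosphoglucomutase that also acts on pentose phosphates, had 236 and 286 normalized counts in NC and 353 and 381 in sh-IRF1 (log2 fold change 0.50, adjusted p = 0.00104 from limma). XYLB, xylulokinase, rose from 157 and 189 to 223 and 287 (0.55, adjusted p = 0.00311 from limma), and lost the call without sh-IRF1 2, at a log2 fold change of 0.37. PRPS2, which activates ribose 5-phosphate to PRPP for nucleotide synthesis, fell from 1280 and 1256 to 887 and 924 (-0.49, adjusted p = 4.55e-08 from limma). PRPSAP1, a protein that associates with the PRPP synthetases, fell from 1073 and 1135 to 754 and 789 (-0.52, adjusted p = 6.22e-08 from limma). Their relatives did not pass the test, with PRPS1 at a log2 difference of 0.097 (standard error 0.0675) and PRPSAP2 at -0.030 (standard error 0.0887).

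The remaining genes of that list did not pass the test. H6PD, which carries out oxidative steps of the pathway in the endoplasmic reticulum, had 1181 and 1169 normalized counts in NC and 1180 and 1207 in sh-IRF1 (log2 fold change 0.022, standard error 0.0638). DERA, deoxyribose phosphate aldolase, stood at 0.025 (standard error 0.0819), and DCXR, an L-xylulose reductase, at -0.033 (standard error 0.0573). PGM2, a phosphopentomutase, stood at -0.15 (standard error 0.0738), with both sh-IRF1 libraries below both NC libraries. SHPK, the sedoheptulose kinase, stood at 0.033 and RBKS, ribokinase, at 0.17, both with standard errors over 0.23. TKTL1, IDNK and GLYCTK had means of at most 55.9 normalized counts in either group and stood at -0.46, -0.26 and -0.14, with standard errors from 0.289 to 0.522. SHPK shares 75.4% of its exonic bases with other genes, so its reads are uncertain. RPEL1, with 1.87 to 12.9 normalized counts, was too low to test, and TKTL2, PRPS1L1 and RGN were not among the genes used here.

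**Figure D3:**
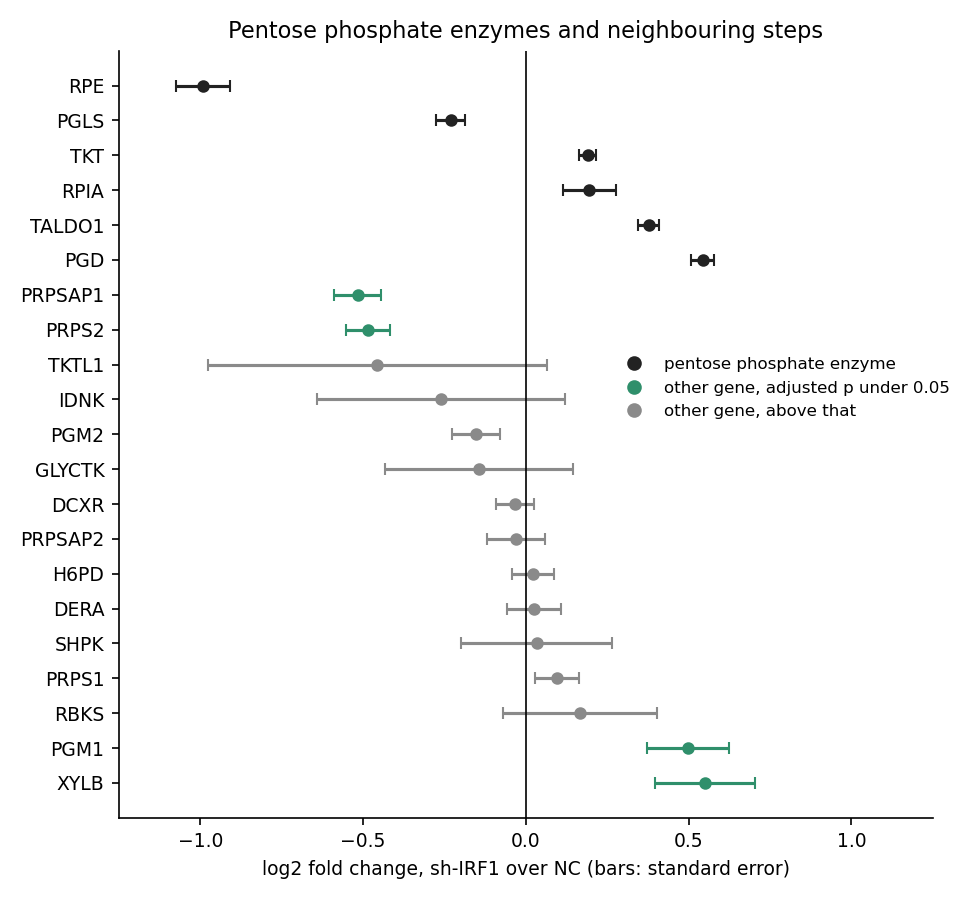
log2 fold change of sh-IRF1 over NC for the 6 enzymes (black) and the 15 tested genes of neighbouring steps (green where the adjusted p was under 0.05, grey otherwise), with the standard error as bars. RPE lies at -0.99, past every other gene drawn, and 11 of the 15 neighbours are grey.

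The steps that feed and use the pathway were read from lists chosen on general knowledge, with earlier results of these data known. Of 18 genes of glucose entry and shared glycolytic steps, 3 rose, 7 fell and 8 did not pass the test (median -0.060). The glucose transporter SLC2A3 fell (log2 fold change -0.76, adjusted p = 1.60e-14 from limma) and SLC2A1 rose (0.20, adjusted p = 0.000187 from limma). PFKFB4, which sets the level of an activator of phosphofructokinase, rose (0.59, adjusted p = 8.01e-09 from limma) and GAPDH fell by 0.19 on the log2 scale (adjusted p = 7.34e-10 from limma).

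Of 13 tested genes outside the pathway, listed for a link to NADPH supply, 2 rose, 6 fell and 5 did not pass the test (median -0.083). Not all of these enzymes make NADPH, since some mainly use NAD or lack a dehydrogenase step. The cytosolic isocitrate dehydrogenase IDH1 rose (0.32, adjusted p = 2.75e-07 from limma), as did the NAD kinase NADK (0.28, adjusted p = 1.11e-05 from limma), both in the direction of PGD. The mitochondrial folate enzymes ALDH1L2 and MTHFD2 fell (-0.94 and -0.31, adjusted p = 9.25e-23 and 1.87e-10 from limma). Of 23 tested genes of enzymes or pathways that consume NADPH, 12 rose, 8 fell and 3 did not pass the test (median 0.19). Those that rose included the glutathione and thioredoxin reductases GSR (0.66, adjusted p = 1.60e-14 from limma) and TXNRD1 (0.39, adjusted p = 6.78e-12 from limma). Those that fell included fatty acid synthase, FASN (-0.79, adjusted p = 1.30e-29 from limma), and LSS of sterol synthesis (-0.65, adjusted p = 2.25e-09 from limma). The count of called genes in that list was 13 without sh-IRF1 1.

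Of 14 genes of nucleotide synthesis, which draws on ribose phosphate, 1 rose, 9 fell and 4 did not pass the test (median -0.20). Not all of their enzymes act on ribose phosphate themselves, and that of CAD does not. CAD fell (-0.53, adjusted p = 6.05e-16 from limma), as did PAICS (-0.44, adjusted p = 1.47e-15 from limma). PFAS rose (0.13, adjusted p = 0.0118 from limma) but not without sh-IRF1 2, where it stood at 0.067.

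Of 12 regulators known to act on the pathway, 5 rose, 6 fell and 1 did not pass the test (median 0.011), and 7 passed without sh-IRF1 1 and 7 without sh-IRF1 2. MYC had 14198 and 14561 normalized counts in NC and 7380 and 7348 in sh-IRF1 (-0.97, adjusted p = 1.03e-29 from limma). SREBF1, a factor of lipid synthesis, had 11728 and 11361 in NC and 5141 and 4928 in sh-IRF1 (-1.20, adjusted p = 1.50e-31 from limma). MAFG, a partner of NRF2, rose (0.41, adjusted p = 5.45e-12 from limma), and so did the deacetylase SIRT2 (0.30, adjusted p = 1.39e-05 from limma). NFE2L2, the gene of NRF2, stood at 0.15 (adjusted p = 0.0158 from limma) and KEAP1, its inhibitor, at -0.12 (adjusted p = 0.0222 from limma), both named after their values were seen. Each lost its call in 3 of the 4 fits with a library left out, NFE2L2 without NC 1, sh-IRF1 1 or sh-IRF1 2 (0.13 to 0.16) and KEAP1 without NC 2, sh-IRF1 1 or sh-IRF1 2 (-0.13 to -0.10), and KEAP1 also with total reads only, at -0.072. The same list of regulators held BACH1, higher at 0.20 (adjusted p = 0.0181 from limma), and MAFK, lower at -0.19 (adjusted p = 0.0331 from limma). MAFK thus differed in the opposite direction to MAFG. BACH1 and MAFK were also named after their values were seen, and MAFK shares 18.1% of its exonic bases with a gene on the opposite strand. Of 9 NRF2 targets outside the pathway, 7 rose, 0 fell and 2 did not pass the test (median 0.44). NQO1 rose from 715 and 704 to 2387 and 2384 (1.75, adjusted p = 8.31e-28 from limma) and FTL by 0.56 (adjusted p = 2.19e-18 from limma). Reads of GAPDH, MTHFD2 and NQO1, which share 17.6%, 14.1% and 19.4% of their exonic bases with genes on the opposite strand, are partly uncertain, as are those of NFE2L2, which shares 38.4% with genes on both strands, and those of GAPDH and FTL, which have pseudogene copies. All these counts stand against the 42.2% of all tested genes that passed.

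**Figure D4:**
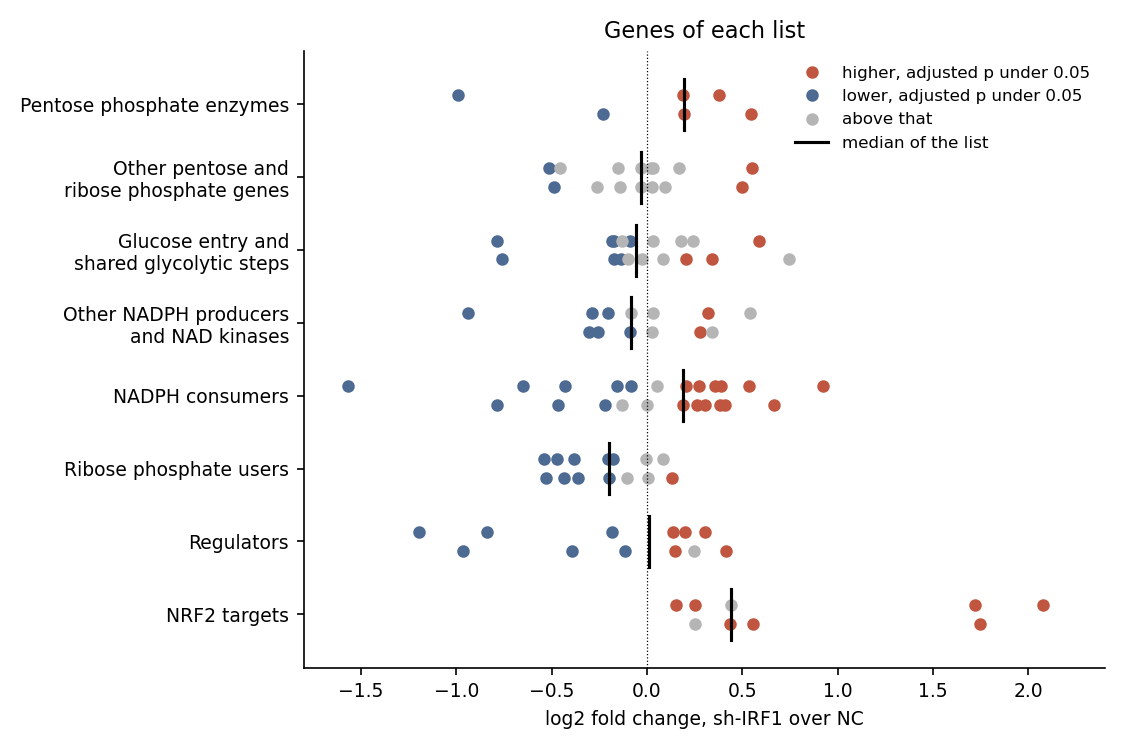
log2 fold change of sh-IRF1 over NC for every tested gene of each list, red where higher and blue where lower at an adjusted p under 0.05, grey otherwise, with the median of each list as a black line. Points are set slightly apart vertically for legibility. The NRF2 targets all lie above 0, while the 6 enzymes lie on both sides. Nucleotide synthesis genes, labelled ribose phosphate users, lie mostly below 0.

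The genes whose 4 values were most like those of each enzyme were found by the Euclidean distance of log2 values centred on their mean, over 4 libraries and among 9986 genes with a mean of at least 100 normalized counts. RPE was closest to TOB2 (distance 0.0186) and SH2B3 (0.0329), and only 8 genes lay within a distance of 0.1 of it. TKT was closest to PKM (0.0019), the pyruvate kinase gene, and MIDEAS (0.0037), and 770 genes lay within 0.1. PGD was closest to CTC1 (0.0130) and TMEM106C (0.0167), with 150 genes within 0.1. TALDO1 was closest to PMVK (0.0153) and WDCP (0.0166), PGLS to MRPL32 (0.0143) and TMEM267 (0.0147), and RPIA to SAFB2 (0.0154) and ECSIT (0.0221). Patterns like those of TALDO1, PGLS and RPIA were common, with 351, 605 and 314 genes within 0.1. With 4 libraries in 2 groups this likeness mostly repeats the size of the difference between the groups.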

How the data were processed

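RNA sequencing of 2 NC and 2 sh-IRF1 libraries of MV4-11 cells was analysed from 1 deposited table. Libraries were made from total RNA with a TruSeq kit that does not mark strand. The submitters' processing notes name HISAT2 (2.0.5) and hg38, and the methods name FPKM and DESeq2. The counting tool and annotation were not given in the sources used here. The deposited values are a normalized signal, reads divided by 1 size factor per library. All (100%) were whole multiples of the value of 1 read within 0.001, and the largest distance was 4.43e-05, so reads were recovered. They summed to between 17635908 and 18695337 per library, and counting error was taken from these. No column of per-sample values was left unused.

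Fold changes came from limma (3.58.1, R 4.3.3, trend and robust settings) on log2(value + 1), a scale that understates changes of low genes, over the 14120 genes with at least 10 in at least 2 libraries, with Benjamini-Hochberg adjustment. An exact permutation test of 2 against 2 cannot give a two-sided p below 0.333, so calls rest on the spread shared across genes (median 43.0 prior degrees of freedom). edgeR (4.0.16) and DESeq2 (1.42.0) on recovered reads, other scalings, filters, pseudocounts and left-out libraries were alternatives. Replicate libraries differed by more than sampling noise (median chi-square per gene 1.13 in NC and 1.08 in sh-IRF1, where sampling noise alone gives 0.455). Symbols matched 23456 of 23622 identifiers. Positions, lengths and overlaps came from GENCODE 44 (GRCh38), and promoters from RefSeq (GRCh38.p14, 1 per gene). Only the limma, edgeR and DESeq2 fits were tested on simulated reads, with set changes larger than those of most of the enzymes.

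The members and all lists were chosen with earlier results of these data known. Named genes were the 6 enzymes, IRF1, all genes of the list of other pentose and ribose phosphate genes, for every other list the 2 called genes of smallest p among those higher and among those lower, and the 2 genes nearest each enzyme. All others, including single cell type markers and overlapping genes, were named after their values were seen.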

Additional observations from a re-analysis of the deposited data

How the results depend on the processing

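The direction of all 6 enzymes was kept in all 15 alternatives, though it could not change in the fits with a library left out. PGD stood at 0.59, TALDO1 at 0.42 and TKT at 0.23 when libraries were scaled by total reads only. That scaling moved the median of all genes to 0.043 and gave 3433 genes higher and 2645 lower. A minimum log2 fold change of 0.5 left 1168 genes higher, 1067 lower and 2 of the enzymes, in place of 2861, 3092 and 6. With a library left out, genes called ranged from 13 to 19 among the NADPH consumers and from 7 to 10 among the regulators. Per kilobase of the longest transcript, NC levels were 2226 for PGLS, 2315 for PGD, 326 for RPE, 5713 for TALDO1 and 2050 for TKT. Per kilobase of the canonical transcript, an alternative chosen after seeing the data, they were 3535, 2315, 326, 5865 and 4986. No pairing by replicate number was seen (correlation of same-numbered deviations -0.0154), which does not show that the libraries were unpaired. A fit with the replicate number as a block called 2903 genes higher and 3147 lower. RPIA was not called in 7 of its 15 alternatives. For the 36 genes of the related lists named by rule, 535 fits gave the same call, 1 was stronger (PGM2 without NC 1, -0.24) and 2 were weaker (XYLB and PFAS without sh-IRF1 2). Of the genes named after their values were seen, only 4 were followed through the alternatives (NFE2L2, KEAP1, KANSL1L and FLT3). Of these, NFE2L2 and KEAP1 had 7 weaker fits between them. The others, among them LYZ, CD14, PGLS-DT, BACH1 and MAFK, were not followed. DESeq2 gave no adjusted p for 9160 genes. With n = 2 the spread of one gene is poorly known, and groups of 2 are too small to look for an outlying library.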
